A study of Homo sapiens with 22 samples.

Results

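Cadherins are the adhesion receptors of the adherens junction, and catenins are the cytoplasmic proteins that bind their tails. The genes of these families described here, CDH1, CDH2, CDH3, CDH6, CDH11, CDH16, CTNNB1 and CTNND1, were selected by name, 8 of the 36859 genes of the deposited table, and all 8 were found in it and followed across all 22 libraries. A classical cadherin binds the same or a related cadherin on the neighbouring cell, and its tail recruits p120-catenin (CTNND1), which keeps it at the membrane, and β-catenin (CTNNB1), which links it through α-catenin to actin. β-catenin that is not held at the junction is degraded by a destruction complex or enters the nucleus to act with TCF/LEF factors. In the kidney, proximal tubules are known for N-cadherin (CDH2) and cadherin-6 (CDH6), other tubule segments for E-cadherin (CDH1), and the tubule as a whole for the kidney-specific cadherin-16 (CDH16). P-cadherin (CDH3) is a cadherin of basal epithelia and cadherin-11 (CDH11) is a mesenchymal cadherin.

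Bulk polyadenylated RNA was sequenced from human renal proximal tubule epithelial cells (RPTEC) immortalized with hTERT, an established cell line, in 11 groups of 2 libraries. In media with 2% serum these were unmodified cells (WT), WT cells kept for 72 h with TGF-β at 10 ng per mL (WT_TGFb), KO1 and KO2, which are single-cell SETD2 knockout clones made by CRISPR, and the libraries labelled KO2_Rescue. In media with 10% serum they were Rescue1 and Rescue2, single-cell clones of SETD2 KO cells carrying lentiviral FLAG-tagged full-length SETD2, and bulk puromycin-selected WT cells transduced with eGFP as control vector (WT_eGFP), SOX2, OCT2 or PRRX1. All cells carried hTERT. The KO clones had frameshift mutations on both SETD2 alleles, and the rescue clones, made from KO cells, were also selected with blasticidin. Which KO clone was the parent of Rescue1 and Rescue2 was not given in the sources used here. Rescue against KO set the mean of Rescue1 and Rescue2 against the mean of KO1 and KO2, so it may include a clone that was not the parent. Serum therefore changed together with SETD2 re-expression in rescue against KO, and together with transduction in WT_eGFP against WT, and these cannot be told apart. The normalized counts of a library added up to between 11674491 and 16758645, and the spacing of its low values placed its depth at about 7700000 to 18700000 reads. No source says that the 2 libraries of a group came from separate cultures, so the p-values measure only the spread between these libraries, which may be technical.

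The SETD2 transcript was read first, as a check of the labels. It had 1852 and 2061 normalized counts in WT, 1046 and 1130 in KO1, 1050 and 1052 in KO2, 10240.3 and 10369 in Rescue1, and 10445 and 9764 in Rescue2. SETD2 mRNA was lower in both clones, by −0.85 (KO1) and −0.89 (KO2) on the log2 scale (limma, adjusted p = 1.3e-07 for each), and was present in both. The libraries labelled KO2_Rescue held 834 and 820 normalized counts, a log2 change of −0.35 from KO2 (SE 0.07, adjusted p = 0.0038). On SETD2 mRNA alone this goes against the label, and whether these cells were rescued was not tested. No direction of rescue was therefore read from the libraries labelled KO2_Rescue. The duplicates of KO1 and of WT stood further apart than those of the other groups. In KO1, 207 genes had a value of 0 beside one of 50 or more, against 49 to 104 genes in the other groups, and KO1 replicate 2 had 14082 genes above 0, the fewest of the 22 libraries. Without KO1 replicate 2 the KO1 clone still had CDH3, CDH11 and CTNND1 called, at log2 changes from WT of −6.88, 7.19 and −1.07, and CDH1 was not. In WT the median absolute log2 difference between the duplicates, over genes with 1000 or more normalized counts in either, was 0.188, against 0.172 in KO1 and 0.067 to 0.12 in the other groups. WT replicate 1 had 11919 of COL1A1 and 124 of AQP1, WT replicate 2 had 532 and 4.77, and WT_TGFb had 46598 and 45007 of COL1A1 and 432 and 448 of AQP1. The cell type was checked on marker genes. The renal tubule markers PAX8, PAX2, KRT8, KRT18 and KRT19 reached 10 normalized counts in all 22 libraries. Of 6 proximal tubule markers, CUBN, ANPEP and GGT1 did so in all 22, AQP1 did in 8, and LRP2, the endocytic receptor megalin, and SLC34A1, a phosphate transporter, did in 0. Their levels varied between groups, as for the keratin KRT8, with 15741 and 16325 in WT, 4558 and 3952 in KO1, 10534 and 9784 in KO2, and 22164 to 25190 in the rescue clones. The libraries labelled KO2_Rescue had 20896 and 21728 of KRT8, above KO2 and just below the rescue clones. Of the stromal DCN they had 37572 and 35187, between KO2 (98373 and 94978) and the rescue clones (611 and 578 in Rescue1, 363 and 398 in Rescue2). Of 5 markers of the loop, distal tubule and collecting duct, the calcium-binding CALB1 reached 10 in all 22 libraries and the transporter SLC12A3 in 13, while UMOD, SLC12A1 and AQP2 did in 0. Of 4 leukocyte markers, CD68, a lysosomal protein of macrophages and other cells, reached 10 in 18 libraries and PTPRC in 1, and CD3E and LST1 did in 0.

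The 8 genes lie on 5 chromosomes, and 4 of the 6 cadherins are on chromosome 16. In GRCh38, CDH11 (ENSG00000140937) spans chromosome 16 from 64943753 to 65126112 on the minus strand, and CDH16 (ENSG00000166589) spans 66908122 to 66918917 on the minus strand. CDH3 (ENSG00000062038, 68636189 to 68727468) and CDH1 (ENSG00000039068, 68737292 to 68835537) follow each other on the plus strand, 9824 bases apart. CDH6 (ENSG00000113361) is on chromosome 5 from 31193686 to 31329146, CDH2 (ENSG00000170558) on chromosome 18 from 27932879 to 28177946, CTNNB1 (ENSG00000168036) on chromosome 3 from 41194741 to 41260096, and CTNND1 (ENSG00000198561) on chromosome 11 from 57753243 to 57819546. The pair of primers with which the study read CDH1 by RT-qPCR is shown because CDH1 is the member with the fewest reads in WT cells after CDH11, and the pair marks the stretch of the transcript that the assay covers:
CDH1 forward primer: cgagagctacacgttcacgg
CDH1 reverse primer: gggtgtcgagggaaaaatagg
The forward primer matched exon 2 of the 16 exons of the canonical CDH1 transcript, at chr16:68738350-68738369 on the plus strand, and the reverse primer matched exon 3, at chr16:68801706-68801726 on the minus strand. The product was 119 bases, and the pair matched 4 annotated transcripts, all of CDH1. Promoter windows of RefSeq (GRCh38.p14, 250 bases before to 50 after a transcript start) were at hand for 2 members, CTNNB1 and CDH2. The E-box CAGGTG, searched on both strands, was in 0 of their 3 windows and in 20.6% of all 35116 windows.

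Levels between genes were compared as normalized counts per kb of the canonical transcript. In WT cells the catenins were the most abundant members, with levels of 1483 and 1387 per kb for CTNND1 and 901 and 995 per kb for CTNNB1. Among the cadherins the WT level was 235 and 60.0 per kb for CDH2, 102 and 109 for CDH3, 43.1 and 59.6 for CDH16, 58.9 and 17.6 for CDH6, 5.30 and 9.87 for CDH1, and 0.140 and 0 for CDH11. The 2 libraries of CDH2 spanned those of CDH3, and CDH6 overlapped CDH16, so the order within each of these pairs was not resolved. CDH13 (T-cadherin, anchored by a lipid and without a catenin-binding tail), which is not among the 8, had the highest level of all 23 cadherins in every group. It made up 45.7% of the summed per-kb cadherin level in WT, 43.9% in WT_TGFb, 91.8% in KO1, 81.6% in KO2 and 80.9% in WT_eGFP. The summed level itself was 834 per kb in WT, 2257 in KO1 and 2000 in KO2.

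**Figure D1:**
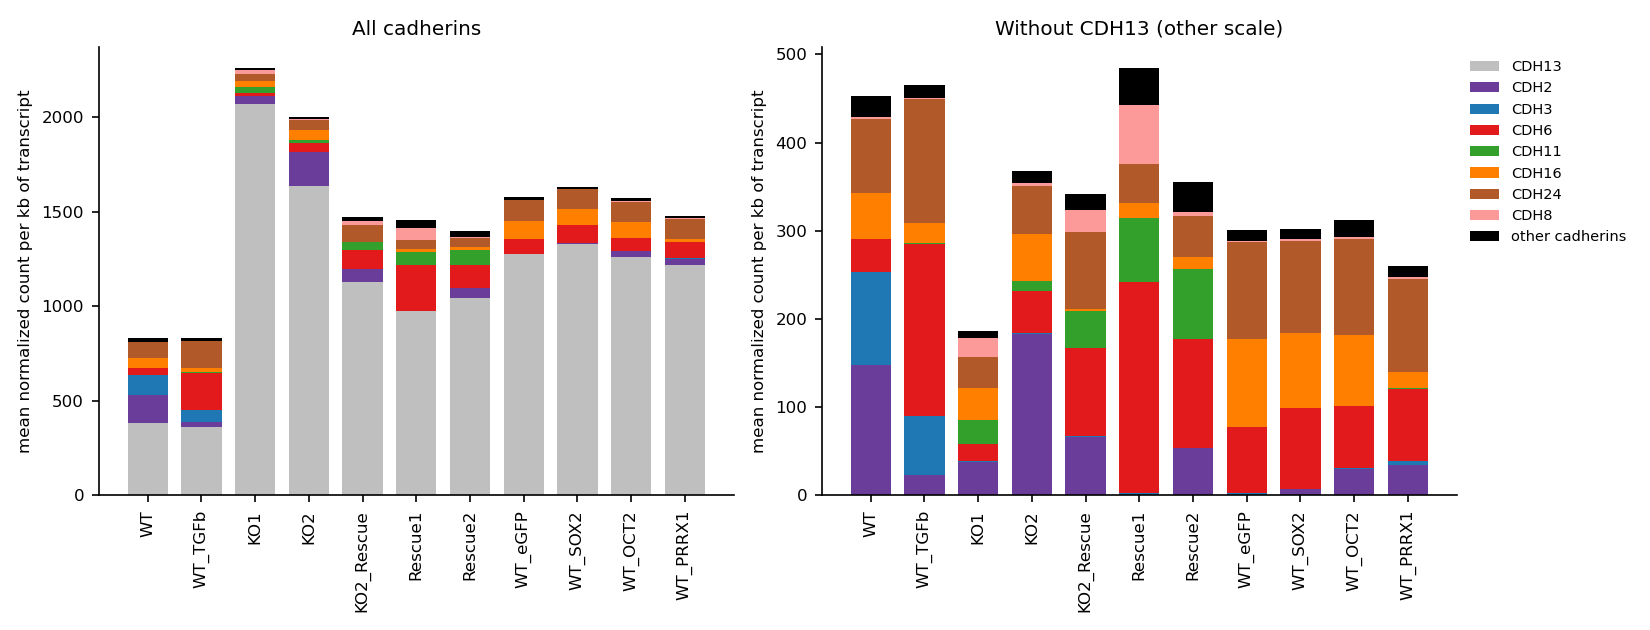
Stacked bars of the mean normalized count per kb of canonical transcript (vertical axis, linear from 0) of each cadherin in the 11 groups, 2 libraries each; the left panel holds all cadherins and the right panel leaves out CDH13 on another scale. The total runs from 830 in WT_TGFb to 2257 in KO1, CDH13 fills most of it outside WT and WT_TGFb, and the CDH3 segment is visible in WT and WT_TGFb.

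E-cadherin (CDH1), the main cadherin of epithelia and the one most often followed as a sign of the epithelial state, was scarce in these cells and fell in both KO clones. It had 25.5 and 47.5 normalized counts in WT, 0 and 10.2 in WT_TGFb, 0 and 0 in KO1, and 0 and 0.776 in KO2. KO1 and KO2 lay below both WT libraries, and the TGF-β-treated libraries did too. CDH1 was at least 12.1-fold lower in KO1 than in WT, against a floor of 3 reads per library (log2 change −5.16, SE 1.61, adjusted p = 0.019). In KO2, where 0.776 normalized counts were taken as 1 read, it was 94-fold lower (95% exact counting interval 11.2 to 2570, counting error only). Its log2 change there was −4.75 (limma, SE 1.61, adjusted p = 0.038). The change with TGF-β was −3.42 (SE 1.61, adjusted p = 0.18) and did not pass. Leaving out either library of KO1 or WT replicate 2 ended the KO1 call, at log2 changes of −5.16, −5.16 and −4.73, and leaving out any 1 of the 4 libraries ended the KO2 call. In the bulk libraries, fewer cells with a transcript and less RNA per cell cannot be told apart.

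CDH1 was at or near 0 in both rescue clones. It had 0 and 0 normalized counts in Rescue1 and 0.778 and 0 in Rescue2. The libraries labelled KO2_Rescue, whose SETD2 count was below that of KO2, had 1.45 and 3.23. All 10 libraries labelled as KO or rescue were at or below 3.23, and 6 of them were at 0. The 8 libraries of transduced WT cells ranged from 0 to 58.0 with a median of 39.6, and their duplicates were far apart, with 57.5 and 3.51 in WT_eGFP and 0 and 49.8 in WT_OCT2. Rescue against WT_eGFP, at the same serum, gave a log2 change of −3.81 (SE 1.39, adjusted p = 0.053), which did not pass.

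P-cadherin (CDH3), the neighbour of CDH1 on chromosome 16, was far more abundant than CDH1 in WT and fell in both clones. It had 456 and 484 normalized counts in WT, 288 and 306 in WT_TGFb, 3.00 and 16.6 in KO1, and 8.57 and 4.48 in KO2. The fall was 48.0-fold in KO1 (log2 change −5.81, SE 0.63, adjusted p = 3.0e-06) and 72.0-fold in KO2 (−6.02, SE 0.63, adjusted p = 3.5e-06), while the change with TGF-β was −0.66 (SE 0.63, adjusted p = 0.57). Leaving out 1 library moved the KO1 change between −4.74 (without KO1 replicate 1) and −6.88 (without KO1 replicate 2). Both TGF-β-treated libraries were below both WT libraries, and in the limma fit to the deposited log2 values CDH3 passed the adjusted p with TGF-β (change −0.12 on that scale, adjusted p = 0.00099). In a direct comparison, KO lay 5.26 log2 units below TGF-β-treated cells (log2 change −5.26, SE 0.54, adjusted p = 2.1e-06). CDH3 was also below WT in transduced cells with intact SETD2, kept in 10% serum. It had 15.8 and 11.1 normalized counts in WT_eGFP (log2 change from WT −5.05, SE 0.63, adjusted p = 3.0e-05), 7.63 and 5.31 in WT_OCT2, 24.5 and 18.5 in WT_PRRX1, and 0 and 0 in WT_SOX2. Both WT_PRRX1 libraries were above all 4 KO libraries and both WT_SOX2 libraries below them, and transduced WT cells were not tested against KO. The 4 libraries of WT and WT_TGFb were at 288 or more and the other 18 were at 24.5 or less. The rescue clones had 12.4 and 12.1 (Rescue1) and 4.76 and 2.14 (Rescue2), a range that overlaps that of the KO clones. Against WT_eGFP the log2 change of rescue was −0.93 (SE 0.54, adjusted p = 0.23). CDH3 was the only 1 of the 8 with a low p in WT_SOX2 against WT_eGFP, where it was at least 4.83-fold lower against the floor of 3 reads per library (log2 change −3.83, SE 0.63, adjusted p = 0.052), and the call failed.

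**Figure D2:**
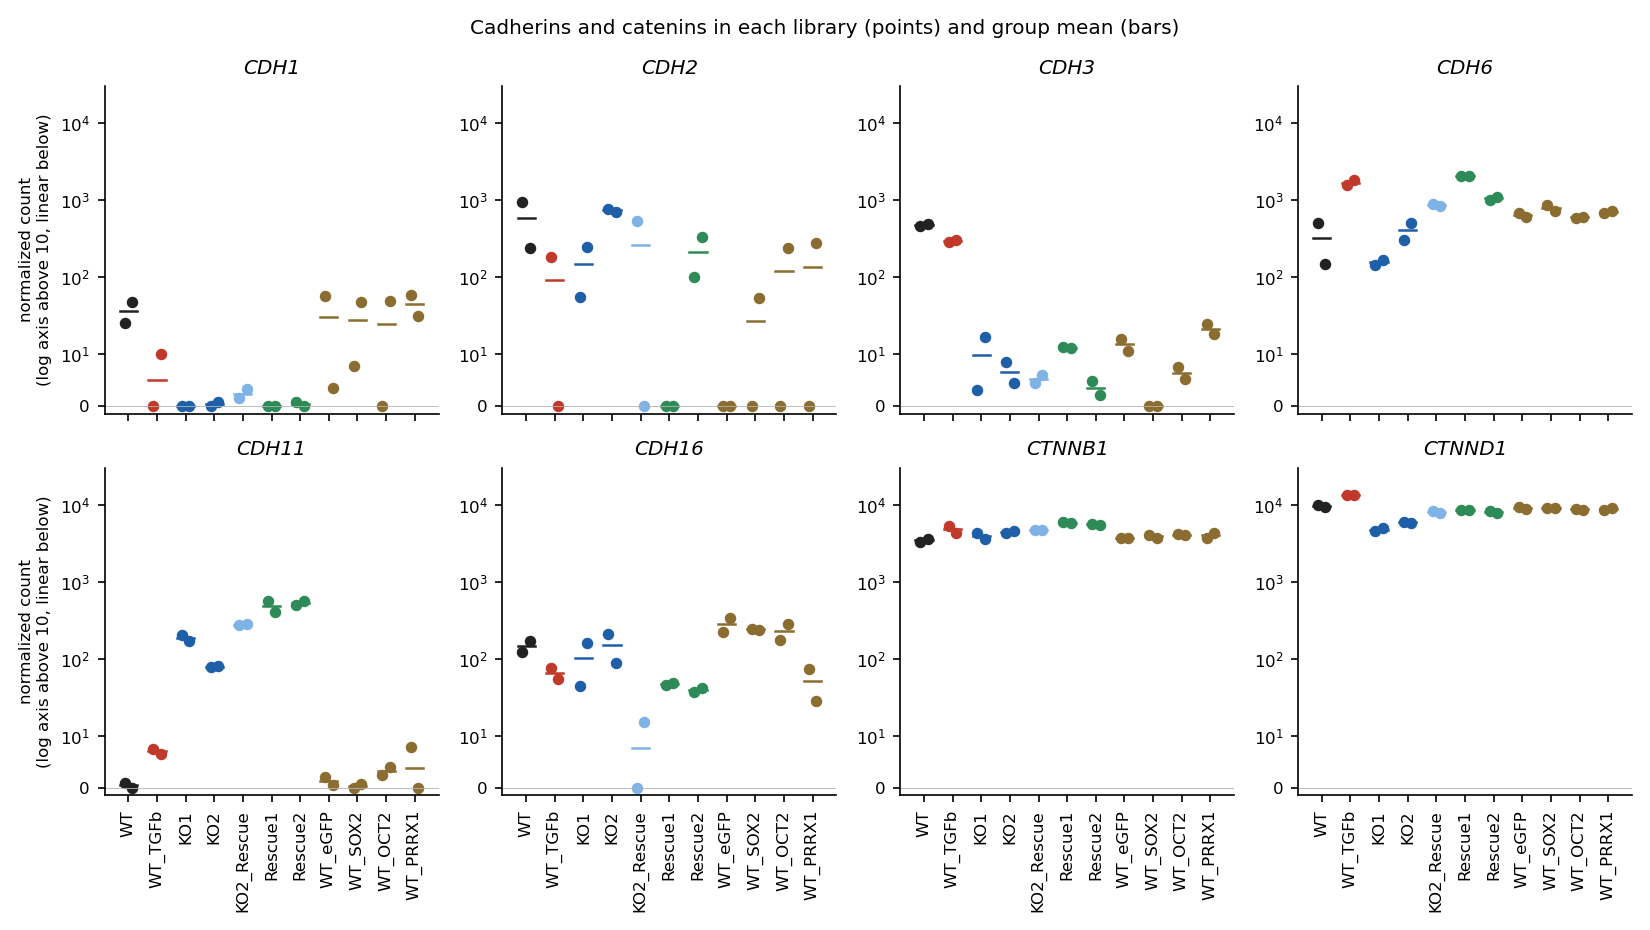
Normalized counts of the 8 genes (vertical axis, logarithmic above 10 and linear below) in the 2 libraries of each of 11 groups (points), with the group mean as a bar. CDH3 sits at 288 to 484 in the 4 WT and WT_TGFb libraries alone, CDH11 at 78.9 or more in the 10 libraries made from KO cells alone, and CDH2 has points at 0 beside points above 50.

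Cadherin-11 (CDH11) ran in the opposite direction to CDH1. It had 0.938 and 0 normalized counts in WT, 7.57 and 6.53 in WT_TGFb, 202 and 170 in KO1, and 78.9 and 81.2 in KO2. KO1 was 397-fold above WT (95% exact counting interval 74.4 to 16500; log2 change 7.06, SE 0.77, adjusted p = 3.3e-06) and KO2 was 171-fold above (31.8 to 7170; log2 change 5.86, SE 0.77, adjusted p = 3.4e-05), on 1 WT read. TGF-β gave 15.0 times the WT level (2.33 to 659; log2 change 2.53, SE 0.77, adjusted p = 0.034), a call that leaving out WT replicate 2 or either treated library ended, at log2 changes of 2.05, 2.44 and 2.62. KO exceeded TGF-β directly by 3.93 (SE 0.67, adjusted p = 2.6e-04).

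CDH11 did not return to the WT level in the rescue clones. It had 560 and 409 normalized counts in Rescue1 and 496 and 569 in Rescue2, above all 4 KO libraries (log2 change 2.04, SE 0.54, adjusted p = 0.0066). Against KO1 alone the change was 1.44 and was not called. The libraries labelled KO2_Rescue had 276 and 284 (log2 change from KO2 1.79, SE 0.77, adjusted p = 0.18). The transduced WT cells had 0 to 7.84 in 8 libraries, so the 10 libraries made from KO cells did not overlap the 12 made from WT cells, and rescue against WT_eGFP gave 7.85 (SE 0.67, adjusted p = 5.9e-07). Of the 6 fibroblast and stroma markers (COL1A1, COL1A2, DCN, LUM, PDGFRA, PDGFRB), between 2 and 6 reached 10 normalized counts in a library. Their sum was 12429 and 829 in WT, 47786 and 46370.0 in WT_TGFb, 236448 and 223367 in KO1, and 102550.0 and 98936 in KO2. It was between 818 and 1524 in the rescue clones, where CDH11 was highest. The most abundant of the 6 was DCN in KO1 (234809 and 221606) and COL1A1 in WT_TGFb (46598 and 45007), and COL1A2 was at 0 in 2 libraries and LUM in 3. The part of other cell types in CDH11 was not tested.

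Cadherin-6 (CDH6), a cadherin of the developing and adult proximal tubule, was higher with TGF-β than in WT or in either KO clone. It had 503 and 150 normalized counts in WT, 1546 and 1792 in WT_TGFb, 146 and 167 in KO1, and 306 and 502 in KO2. TGF-β raised it 5.11-fold (log2 change 2.59, SE 0.37, adjusted p = 1.7e-04), although with only the 4 libraries compared in the fit the same change was not called. The WT duplicates were far apart, and leaving out WT replicate 1 gave 3.46 and leaving out WT replicate 2 gave 1.72, called either way. WT replicate 1, the library with more COL1A1 and AQP1, was also the one with more CDH6, and the part of this difference between the WT libraries in the CDH6 changes was not tested beyond leaving out each. The clones overlapped WT, with a log2 change of −0.82 for KO1 (SE 0.37, adjusted p = 0.095) and of 0.51 for KO2 (SE 0.37, adjusted p = 0.35). Each clone's value turned on the WT library. Without WT replicate 1 it was 0.05 in KO1 and 1.38 in KO2, and KO2 was called higher. Without WT replicate 2 it was −1.68 in KO1, called lower, and −0.36 in KO2. KO lay below TGF-β by 2.74 log2 units (log2 change −2.74, SE 0.32, adjusted p = 7.1e-06).

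In the rescue clones CDH6 rose above KO. It had 2032 and 2061 normalized counts in Rescue1 and 1002 and 1101 in Rescue2, a 5.53-fold rise (log2 change 2.56, SE 0.26, adjusted p = 1.2e-06). Against WT_eGFP at the same serum, which had 671 and 596, rescue was higher by 1.21 (SE 0.32, adjusted p = 0.0097), without overlap. Leaving out either WT_eGFP library ended that call, at 1.30 and 1.13. WT_eGFP itself was above WT by 1.2 (SE 0.37, adjusted p = 0.026), and without WT replicate 2 this was 0.33. The libraries labelled KO2_Rescue had 879 and 837, a change of 1.13 from KO2 (SE 0.37, adjusted p = 0.070).

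N-cadherin (CDH2), the cadherin that commonly replaces E-cadherin in mesenchymal cells, had duplicates that disagreed in most groups. It had 942 and 241 normalized counts in WT, 185 and 0 in WT_TGFb, 55.1 and 245 in KO1, 765 and 703 in KO2, 529 and 0 in the libraries labelled KO2_Rescue, 0 and 0 in Rescue1, 99.6 and 330 in Rescue2, 0 and 0 in WT_eGFP, 0 and 54.6 in WT_SOX2, 0 and 239 in WT_OCT2, and 0 and 275 in WT_PRRX1. Only KO2 held close duplicates above 0. In 5 of 11 groups a value of 0 stood beside one above 50, which was so in at least 5 groups for 12 of the 9819 genes with a mean of at least 50 (0.122%), CDH2 included. The mean absolute log2 difference between its duplicates was 4.03, larger than for 99.9% of these genes, whose median was 0.26. With a standard error of 3.32 for a contrast of 2 groups, CDH2 was called in 0 of the 13 comparisons by limma, and 2 had an unadjusted p under 0.05 (WT_eGFP against WT and Rescue1 against Rescue2). Both WT_eGFP libraries were at 0, below both WT libraries, at least 163-fold lower against the floor of 3 reads per library (log2 change −8.90, SE 3.32, adjusted p = 0.063), and in the limma fit to the deposited log2 values this change passed the adjusted p.

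**Figure D3:**
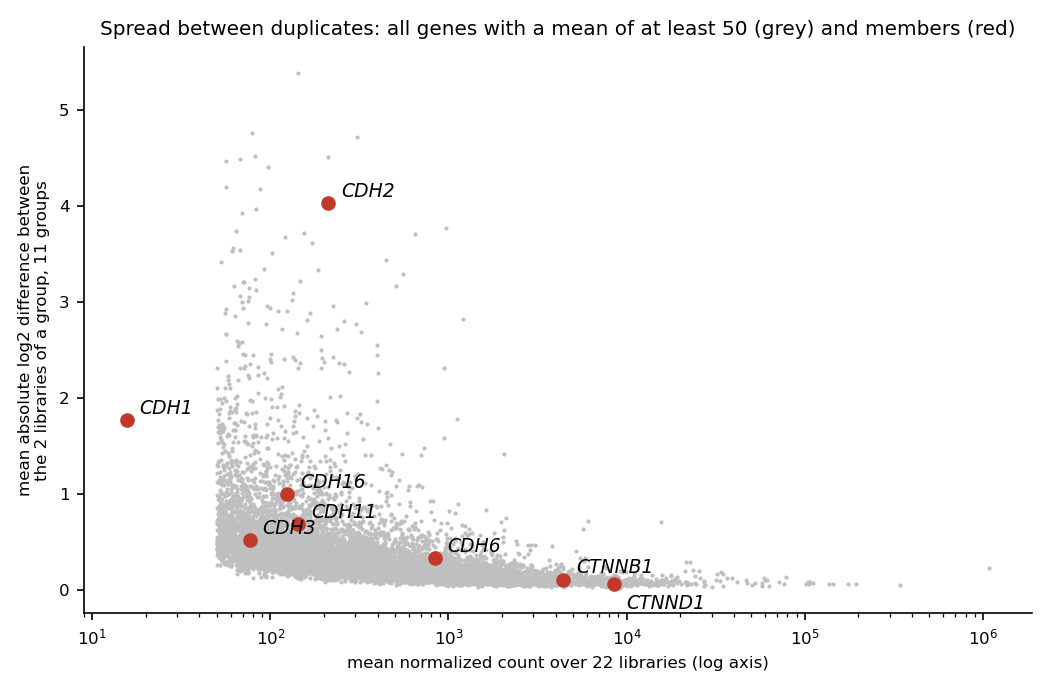
Mean absolute log2 difference between the 2 libraries of a group, averaged over 11 groups (vertical axis), against the mean normalized count over 22 libraries (horizontal axis, logarithmic) for every gene with a mean of at least 50 (grey) and the 8 members (red). CDH2 stands at 4.03 and CTNND1 at 0.06, and CDH1, at a mean of 15.7, lies left of the grey genes.

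Cadherin-16 (CDH16, Ksp-cadherin), a marker of the renal tubule, was lower in the rescue clones than in WT_eGFP. It had 123 and 170 normalized counts in WT, 76.2 and 54.6 in WT_TGFb, 44.6 and 161 in KO1, and 211 and 89.4 in KO2. The TGF-β-treated libraries were below both WT libraries (log2 change −1.15, SE 0.94, adjusted p = 0.49), which did not pass, and each clone overlapped WT. It had 45.7 and 49.0 in Rescue1 and 37.0 and 42.0 in Rescue2, against 225 and 345 in WT_eGFP, 6.57-fold lower (log2 change −2.66, SE 0.82, adjusted p = 0.023). Leaving out Rescue2 replicate 1 or either WT_eGFP library ended this call, at −2.62, −2.97 and −2.36. Against KO the change in rescue was −1.30 (SE 0.67, adjusted p = 0.13). The libraries labelled KO2_Rescue had 0 and 15.3, below both KO2 libraries (log2 change −5.10, SE 0.94, adjusted p = 0.0024), which was not called with only those 4 libraries in the limma fit (adjusted p = 0.19). WT_PRRX1 had 74.6 and 28.9, below both WT_eGFP libraries, with an adjusted p of 0.97 (log2 change −2.56, SE 0.94).

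p120-catenin (CTNND1), which binds the membrane-proximal part of cadherin tails, was the most evenly measured member and fell in KO1. It had 9892 and 9248 normalized counts in WT, 13377 and 13308 in WT_TGFb, 4543 and 4930 in KO1, and 6011 and 5781 in KO2, and no pair of these groups overlapped. KO1 was 2.02-fold below WT (log2 change −1.02, SE 0.06, adjusted p = 2.4e-09), just past the fold threshold. KO2 was 1.62-fold below (−0.70, SE 0.06, adjusted p = 2.6e-07), under the fold threshold. Without WT replicate 1 or KO1 replicate 1 the KO1 change was −0.97 and −0.96 and was no longer called. TGF-β went the other way by 0.48 (SE 0.06, adjusted p = 3.4e-05), also under the fold threshold, and KO lay below TGF-β-treated cells by 1.34 (log2 change −1.34, SE 0.05, adjusted p = 2.0e-11).

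In the rescue clones CTNND1 was higher than in KO, under the fold threshold. It had 8650 and 8528 normalized counts in Rescue1 and 8274 and 7801 in Rescue2, above all 4 KO libraries (log2 change 0.65, SE 0.04, adjusted p = 5.3e-09). The difference from WT_eGFP, with 9291 and 8812, was −0.12 (SE 0.05, adjusted p = 0.075). The libraries labelled KO2_Rescue, with 8255 and 7717, were also above KO2 (0.44, SE 0.06, adjusted p = 1.3e-04), and their SETD2 count was below that of KO2.

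β-catenin (CTNNB1) varied least between groups, from 3297 to 5964 normalized counts over 22 libraries, a 1.81-fold range. It had 3297 and 3644 in WT, 5371 and 4321 in WT_TGFb (log2 change 0.47, SE 0.10, adjusted p = 0.0041), 4297 and 3573 in KO1 (0.18, SE 0.10, adjusted p = 0.19), and 4292 and 4559 in KO2 (0.35, SE 0.10, adjusted p = 0.016). Rescue1 had 5964 and 5753 and Rescue2 had 5623 and 5525, higher than KO (0.46, SE 0.07, adjusted p = 9.5e-05) and than WT_eGFP (0.61, SE 0.09, adjusted p = 9.7e-05). Each of these changes was under the fold threshold.

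Counts of called members were set beside the share of all 14585 tested genes called in the same comparison, where a call needs an adjusted p below 0.05 together with a log2 change of more than 1 in size. With TGF-β, 2 of 8 members were called, both higher (CDH6 and CDH11), and 7.84% of all genes were. In KO1, 1 was called higher and 3 lower, and 25.0% of all genes were called. In KO2 the numbers were 1 higher and 2 lower, with 16.3% of all genes. KO against TGF-β gave 1 higher and 3 lower beside 20.2%, and KO1 against KO2 gave 1 lower beside 6.97%. Rescue against KO gave 2 higher beside 23.3%, which is near the share of all genes, and rescue against WT_eGFP gave 2 higher and 1 lower beside 13.1%. The comparison of Rescue1 with Rescue2 called 0 members and 0.994% of genes, that of the libraries labelled KO2_Rescue with KO2 called 1 member lower and 4.17%, and that of WT_eGFP with WT called 1 higher and 1 lower beside 12.7%. SOX2, OCT2 and PRRX1 against WT_eGFP each called 0 members, by limma, beside 0.0206%, 0.0343% and 0.0411% of genes. At an unadjusted p under 0.05, Rescue1 against Rescue2 held 3 members (CDH2, CDH3 and CDH6), SOX2 held 1 (CDH3), OCT2 held 0 and PRRX1 held 1 (CDH16). The TGF-β, KO1, KO2 and WT_eGFP comparisons share the WT libraries.

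**Figure D4:**
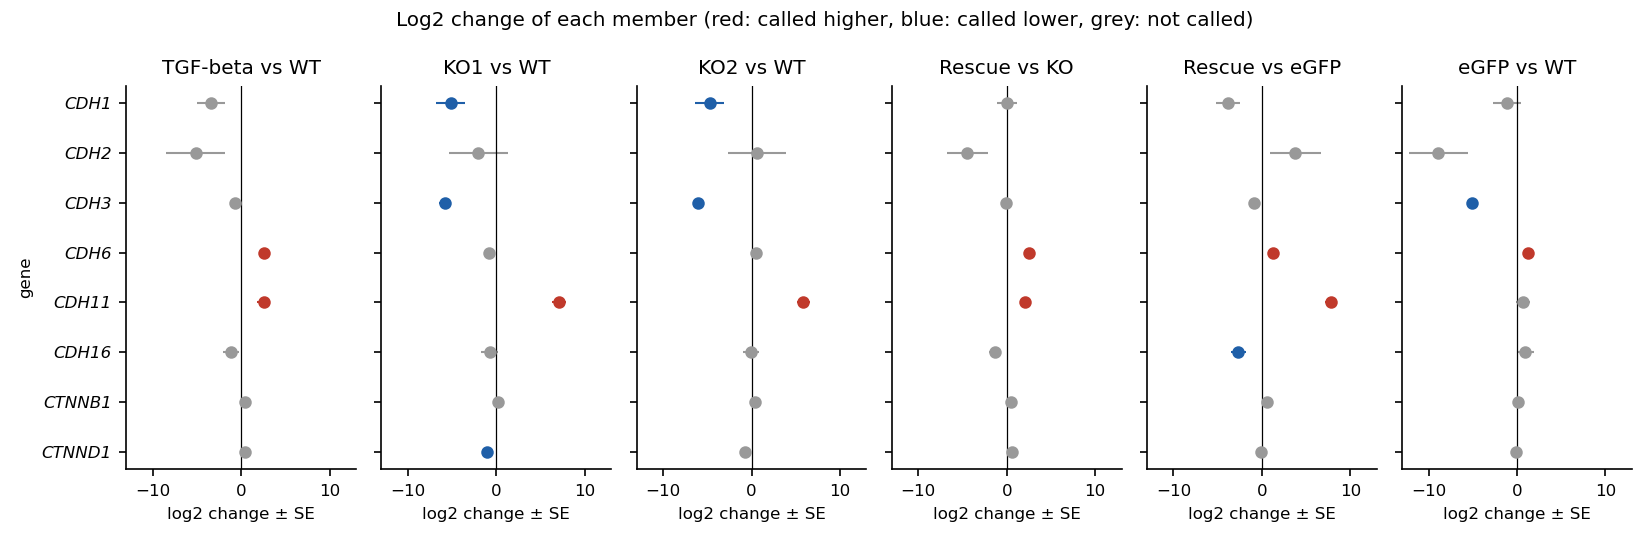
Log2 change of log2(normalized count + 1) with its standard error (horizontal axis) for the 8 genes (vertical axis) in 6 comparisons, with called changes in colour. CDH11 is called higher in 5 of the 6 panels, all but WT_eGFP against WT, CDH3 is lower in KO1, KO2 and WT_eGFP against WT, and CDH2 carries the widest error bars.

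Of the 17 other cadherins listed, 6 were tested, and their median log2 changes were −0.03 with TGF-β, −0.42 in KO1, 1.42 in KO2 and 1.67 in rescue against KO, where the medians over all tested genes were 0, 0, 0.003 and 0.001. With TGF-β 0 were called by limma (1 at an unadjusted p under 0.05), in KO1 2 rose and 1 fell, in KO2 2 rose, and in rescue 3 rose, beside 7.84%, 25.0%, 16.3% and 23.3% of all tested genes called with TGF-β, in KO1, in KO2 and in rescue against KO. CDH13 rose in both clones, from 2558 and 3446 normalized counts in WT to 16578 and 16037 in KO1 (log2 change 2.46, SE 0.10, adjusted p = 9.9e-11) and 12964 and 12753 in KO2 (2.11, SE 0.10, adjusted p = 1.1e-09). WT_eGFP had 10179 and 9905 of it (log2 change from WT 1.76, SE 0.10, adjusted p = 2.1e-08), so CDH13, like CDH3, was away from WT in transduced cells with intact SETD2 as well. 

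CDH8, a type II cadherin of the nervous system, differed between clones of the same kind. It had 16 and 25.1 in WT, 164 and 234 in KO1, 37.2 and 30.6 in KO2, 597 and 636 in Rescue1, and 41.3 and 49.2 in Rescue2, and Rescue1 exceeded Rescue2 by 3.74 (SE 0.34, adjusted p = 1.3e-05). Above both KO2 libraries lay also those labelled KO2_Rescue, with 218 and 244 (log2 change 2.74, SE 0.34, adjusted p = 7.8e-05). The change of both rescue clones from KO, 1.03, was called, but it was −0.84 for Rescue2 alone and −0.22 against KO1 alone. CDH24 fell in KO1 (log2 change −1.31, SE 0.22, adjusted p = 2.0e-04), and without KO1 replicate 1 it was −0.89 and not called. CDH10 was at 0 in WT and KO1 and had 6.33 and 10.8 in KO2, at least 3.17-fold above the floor of 3 reads per library in WT (log2 change 3.21, adjusted p = 0.0013), and it was called higher in rescue than in both KO clones pooled (2.31, SE 0.45, adjusted p = 7.1e-04). Rescue1 had 20.1 and 21.4 of it and Rescue2 had 4.495 and 18.8, which overlapped KO2, and against KO2 alone the change was 0.70 (adjusted p = 0.37). VE-cadherin (CDH5), the cadherin of endothelium, was at 0 in the 4 KO libraries and had 68.7 and 83.8 in Rescue1 and 5.75 and 23.6 in Rescue2 (rescue at least 12.8-fold above KO, log2 change 4.98, SE 0.98, adjusted p = 7.5e-04). In cells with intact SETD2 it had 0 and 17.9 in WT and 1.57 and 15.5 in WT_eGFP, which overlapped Rescue2, and rescue against WT_eGFP was not called (2.27, SE 1.21, adjusted p = 0.18). Of the 5 endothelial markers (PECAM1, VWF, CDH5, KDR, TEK), PECAM1 was at 0 in 19 of 22 libraries and the others in 1 to 10. Their sum was 4.99 and 40.3 normalized counts in WT, 126 and 149 in KO1, 157 and 152 in KO2, 90.2 and 138 in Rescue1, and 8.77 and 45.4 in Rescue2. The most abundant of them in KO was KDR, a VEGF receptor, with 123 and 103 in KO1 and 145 and 126 in KO2 against 0.770 and 0 in WT. In Rescue1 KDR had 4.19 and 42.0, and TEK had 14.8 and 12.1. The part of endothelial cells in CDH5 was not tested.

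Among 9 other catenins, 7 were tested and their medians were 0.45 with TGF-β, −1.13 in KO1, −0.22 in KO2 and 0.67 in rescue against KO. Called in those comparisons were 1, 2, 1 and 1 of them, all lower except the one in rescue, beside 7.84%, 25.0%, 16.3% and 23.3% of all genes, so that these counts were near the shares of all genes. PKP4, a p120 relative, fell from 2240 and 2469 normalized counts in WT to 1468 and 783 in KO1 (log2 change −1.13, SE 0.25, adjusted p = 0.0019) and 1143 and 1150 in KO2 (−1.04, SE 0.25, adjusted p = 0.0049). Without KO1 replicate 2 the KO1 change was −0.68, and without WT replicate 2 that of KO2 was −0.97, neither called. ARVCF, another p120 relative, fell in KO1 (−1.52, SE 0.24, adjusted p = 1.3e-04), with −0.22 in KO2 (adjusted p = 0.56), and KO1 was below KO2 in a direct test (−1.30, SE 0.24, adjusted p = 0.0018). It was lower in WT_eGFP than in WT as well (log2 change −1.004, SE 0.24, adjusted p = 0.0061). CTNNAL1, which resembles α-catenin, fell with TGF-β (−1.43, SE 0.38, adjusted p = 0.018) and rose in rescue (1.259, SE 0.27, adjusted p = 0.0015). The first call ended without WT replicate 2 (−1.19) or WT_TGFb replicate 1 (−1.05), and the second without KO1 replicate 2 (0.93). Plakoglobin (JUP), the catenin shared with desmosomes and picked here after its values were seen, had 3779 and 3727 in WT, 7064 and 6131 in WT_TGFb, and 7704 and 6798 in KO2, with log2 changes of 0.81 and 0.95 that passed the adjusted p and not the fold threshold. In KO1 it had 4827 and 4656 (0.34, SE 0.09, adjusted p = 0.0091), below KO2 by 0.61 (log2 change −0.61, SE 0.09, adjusted p = 3.8e-04). Rescue was below KO (−0.87, SE 0.07, adjusted p = 4.9e-08), also under the fold threshold.

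Of 13 adherens junction partners, 12 were tested, with medians of −0.10 with TGF-β, −0.47 in KO1, −0.46 in KO2 and 0.18 in rescue against KO. With TGF-β and in KO2 0 were called by limma, where 5 and 7 had an unadjusted p under 0.05 and 3 and 4 passed the adjusted p alone, in KO1 2 fell, and in rescue 4 rose and 1 fell. The shares of all genes called were 7.84% with TGF-β, 16.3% in KO2, 25.0% in KO1 and 23.3% in rescue. Vinculin (VCL), which reinforces the link to actin under tension, had 16499 and 15234 normalized counts in WT, 23656 and 23739 in WT_TGFb, 5880 and 6219 in KO1, and 11346 and 11298 in KO2. It fell in KO1 (log2 change −1.39, SE 0.05, adjusted p = 1.4e-11) and rose in rescue (1.27, SE 0.03, adjusted p = 5.7e-13), to 19038 or more in each of the 4 rescue libraries. Against KO1 alone the rescue change was 1.72, and against KO2 alone it was 0.82, under the fold threshold. PLEKHA7, which ties p120-catenin to microtubules, had 269 and 223 in WT, 63.1 and 2.84 in KO1, and 76.8 and 60.9 in KO2. It fell in KO1 (−3.97, SE 0.82, adjusted p = 0.0013) and rose in rescue (1.84, SE 0.58, adjusted p = 0.018). Without KO1 replicate 2 these were −1.94, still called, and 0.82, not called, and the call in rescue also ended without KO2 replicate 2 (1.76), Rescue1 replicate 1 (1.74) or Rescue2 replicate 1 (1.69). Against KO1 alone the rescue change was 2.91 and called, and against KO2 alone it was 0.77 (adjusted p = 0.45). Neither rescue clone was called alone, at changes of 1.83 for Rescue1 and 1.84 for Rescue2. The nectin NECTIN1 (1.98, SE 0.64, adjusted p = 0.019) and the actin-binding protein LIMA1 (1.01, SE 0.04, adjusted p = 2.2e-11) also rose in rescue, and the phosphatase PTPRM fell (−1.13, SE 0.07, adjusted p = 3.5e-09). Leaving out any of 4 libraries ended the NECTIN1 call, at 1.43 to 1.87, and any of 2 ended that of LIMA1. Against KO1 alone neither was called (1.40, adjusted p = 0.16, and 0.93), nor was NECTIN1 for Rescue1 alone (1.73) or LIMA1 for Rescue2 alone (0.95). Of 5 genes of cadherin processing, ADAM10, the protease that sheds cadherin ectodomains, fell with TGF-β, from 5650 and 6863 to 3011 and 2679 (−1.13, SE 0.10, adjusted p = 2.0e-06; −0.99 and not called without WT replicate 2), and 0 were called by limma in KO1, KO2 or rescue, where 2, 1 and 3 had an unadjusted p under 0.05. The medians of the 5 were 0.15 with TGF-β, −0.03 in KO1, 0.23 in KO2 and −0.37 in rescue.

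Of 12 regulators of E-cadherin, 8 were tested, with medians of 0.11 with TGF-β, −0.02 in KO1, 0.11 in KO2 and 0.50 in rescue against KO. In each clone 3 rose and 1 fell, with TGF-β 1 rose and 2 fell, and in rescue 2 rose and 1 fell. Of all genes, 25.0% were called in KO1, 16.3% in KO2, 7.84% with TGF-β and 23.3% in rescue. The repressor ZEB2 had 317 and 330 normalized counts in WT, 2029 and 2044 in KO1, and 2236 and 2280 in KO2, log2 changes of 2.65 and 2.80 (SE 0.12, adjusted p = 2.4e-10 and 2.5e-10). It was lower in rescue than in KO (−1.22, SE 0.09, adjusted p = 2.1e-08), with 740 to 1090 in the 4 libraries, above both WT libraries. WT_eGFP had 1886 and 1593 of ZEB2, beside 57.5 and 3.51 of CDH1. TCF4, the E-protein repressor E2-2, rose with TGF-β (1.01, SE 0.26, adjusted p = 0.014) and in both clones (3.02 and 3.01, SE 0.26, adjusted p = 2.9e-07 and 5.3e-07), and had 635 and 365 in WT_eGFP against 60.0 and 60.1 in WT. TWIST2 rose in both clones (1.96 and 2.33, SE 0.62, adjusted p = 0.021 and 0.010) and again in rescue (1.18, SE 0.44, adjusted p = 0.040), from 1.79 and 0.818 in WT to between 14.8 and 32.0 in rescue. The TWIST2 call in rescue was not made against either KO clone alone or for Rescue2 alone, and leaving out any 1 of 8 libraries ended it, as any of 2 libraries did those in KO1 and in KO2. SNAI2, the repressor Slug, rose in rescue (2.76, SE 0.28, adjusted p = 1.3e-06), and was higher still in WT_eGFP, with 398 and 406 against 26.8 and 23.5 in WT. In KO1 and KO2 it was not called by limma (−0.23 and −0.47, adjusted p = 0.70 and 0.44). The other tested repressors, TCF3 and ZEB1, were not called in either clone. TCF3 was lower under the fold threshold (−0.59 and −0.72, adjusted p = 0.0054 and 0.0018), and ZEB1 changed by 0.20 and 0.29 (adjusted p = 0.095 and 0.021). Of the epithelial factors, ELF3 fell with TGF-β from 2584 and 3414 to 519 and 600 (−2.41, SE 0.14, adjusted p = 2.9e-08). OVOL2 fell with TGF-β (−2.84, SE 0.72, adjusted p = 0.013) and in both clones, from 14.6 and 15.5 in WT to 0 in all 4 KO libraries, at least 5.02-fold lower in KO1 and 4.24-fold lower in KO2, and it was at 0 in both WT_eGFP libraries too. With TGF-β the call of TCF4 ended without WT replicate 1 (1.01), WT replicate 2 (1.01) or WT_TGFb replicate 1 (0.66). That of OVOL2 ended without WT replicate 2 (−2.80) or WT_TGFb replicate 2 (−1.67).

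**Figure D5:**
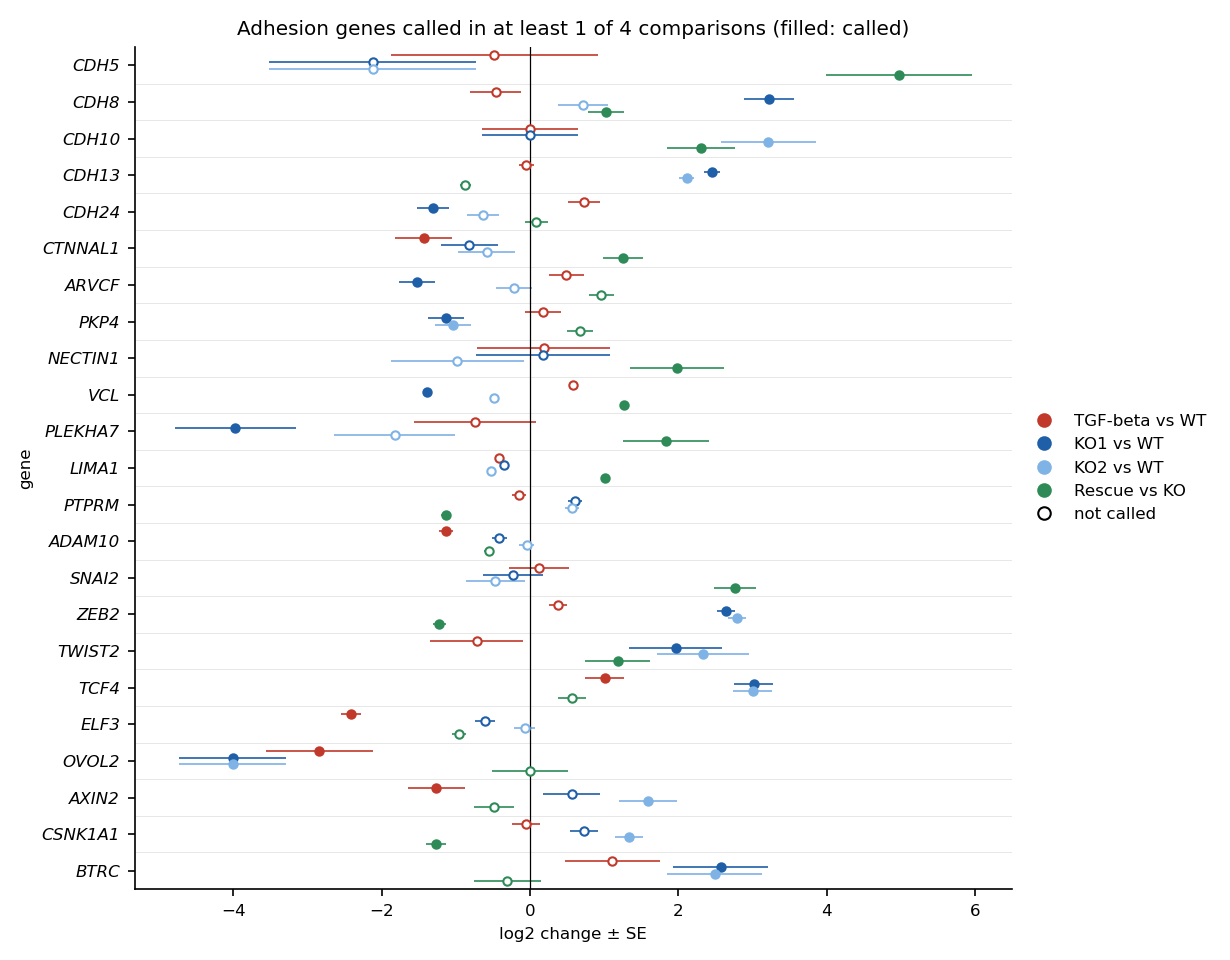
Log2 change with its standard error (horizontal axis) of the 23 listed adhesion and regulator genes (vertical axis) called in at least 1 of TGF-β against WT, KO1 against WT, KO2 against WT and rescue against KO. Filled points are called, and ZEB2, TCF4, CDH13 and BTRC lie to the right of 2 in both clones, and OVOL2 lies at −4.01 in both.

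Of the 8 genes of the β-catenin destruction complex, all were tested, with medians of 0.21 with TGF-β, 0.39 in KO1, 0.56 in KO2 and −0.15 in rescue against KO. With TGF-β 1 fell, in KO1 1 rose, in KO2 3 rose, and in rescue 1 fell, beside 7.84%, 25.0%, 16.3% and 23.3% of all genes. BTRC, the ubiquitin ligase subunit that recognizes phosphorylated β-catenin, rose in both clones (2.57 and 2.49, SE 0.64, adjusted p = 0.0048 and 0.0079) and had 658 and 398 normalized counts in WT_eGFP against 120 and 49.9 in WT. CSNK1A1, the priming kinase, rose in KO2 (1.33, SE 0.19, adjusted p = 7.5e-05) and fell in rescue (−1.27, SE 0.13, adjusted p = 1.9e-06), with changes of −1.57 against KO2 alone and −0.97, under the fold threshold, against KO1 alone. It had 791 and 636 in WT_eGFP against 231 and 235 in WT (1.601, SE 0.19, adjusted p = 2.0e-05). AXIN2, a scaffold and a target of β-catenin signalling, had 52.9 and 86.2 in WT, fell to 45.8 and 16.5 with TGF-β (−1.26, SE 0.39, adjusted p = 0.036) and rose to 204 and 208 in KO2 (1.59, SE 0.39, adjusted p = 0.0057), with 115 and 87.2 in KO1 (0.56, adjusted p = 0.28). In WT_eGFP, with intact SETD2, it had 263 and 209, also above WT (1.78, SE 0.39, adjusted p = 0.0031). The BTRC calls ended without WT replicate 2 (1.94 in KO1 and 1.86 in KO2), and that in KO2 also without KO2 replicate 1 (2.32). The AXIN2 call with TGF-β ended without WT replicate 2 (−0.91) or WT_TGFb replicate 2 (−0.55), and that in KO2 without WT replicate 1 (1.25). Of 4 TCF/LEF factors 3 were tested, and 0 were called in any of the 13 comparisons by limma, with at most 1 at an unadjusted p under 0.05 in each. Their medians were 0.10 with TGF-β, −0.14 in KO1, 0.58 in KO2 and −0.20 in rescue.

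For each of the 8 genes, the 3 tested genes with the most similar pattern were found by Pearson's r of log2(normalized count + 1) over the 22 libraries, which share groups and depth, as a description. CTNND1 was most like SRGAP1 (r = 0.967), NET1 (0.963) and PTPRB (0.961). CDH11 was most like AMPH (0.958), COL5A1 (0.945) and COL6A2 (0.942), and CDH6 most like AKAP12 (0.956), ARHGAP31 (0.918) and ENAH (0.884). CDH3 followed MYL3 (0.889), LTB (0.877) and PTH1R (0.865), and CTNNB1 followed MPP3 (0.889), ARHGDIA (0.871) and FLNC (0.858). CDH1 was nearest to FCGR2A (0.848), SEMA4G (0.792) and RASAL1 (0.787), and CDH16 to MAML2 (0.833), NUMB (0.822) and OSGIN2 (0.816). The lowest values were those of CDH2, with LINC01667 (0.741), MTMR1 (0.721) and ZNF207 (0.713).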

How the data were processed

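The deposited table, with 22 columns, holds log2 values between 11.3 and 21.3 that the authors made with Salmon 1.9.0 on Ensembl 94 transcripts (hg38) and DESeq2 1.26.0, per the submitters' notes and the study's methods. The transformation is not named there. The values have the form of DESeq2's variance-stabilized values and were returned to normalized counts on that reading, without which no count in the text holds. Count models were not used, since whole reads could not be recovered. The 14585 genes that reached 10 normalized counts in 2 or more libraries entered 1 limma 3.58.1 fit (R 4.3.3, trended variance) of log2(normalized count + 1) over all 22 libraries, with Benjamini-Hochberg adjustment over those genes. Calls needed an adjusted p below 0.05 and a log2 change of more than 1 in size. The code of the fit was run on simulated counts with known changes, at a spread set by hand, which bears on the code and not on the calls. A marker gene of the lists is not reported here. Transcript lengths and positions came from GENCODE 44 (GRCh38), in which 33878 of 36859 gene IDs were found. Intervals and floors cover counting error only, with 1 read taken as the step between low values (0.807 to 1.57 normalized counts). Values were rounded to whole steps for them. Of the low values of a library, 51.0% to 67.7% lay near a whole step, so numbers of reads and the intervals are approximate. The members and lists were chosen with earlier results of these data known. All members, the listed genes called with TGF-β, in KO1, in KO2 or in rescue against KO, and the 3 genes most like each member are named.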

Additional observations from a re-analysis of the deposited data

Results flagged for a closer look

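The differences of CDH6 and CTNND1 between the KO clones, each set against the same WT, stand here, since the direct test of KO1 against KO2 passed an adjusted p of 0.05 (limma). CDH6 was lower in KO1 than in KO2 by 1.32 on the log2 scale (log2 change −1.32, SE 0.37, adjusted p = 0.024), with 146 and 167 normalized counts against 306 and 502. Leaving out either KO1 library or KO2 replicate 2 ended the call, at −1.23, −1.42 and −0.97, and it was also lost with only the 4 libraries compared in the fit. CTNND1 was lower in KO1 by 0.32 (log2 change −0.32, SE 0.06, adjusted p = 0.0015), with 4543 and 4930 against 6011 and 5781, under the fold threshold. Groups of 2 libraries were too small for a test of single libraries.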

How the results depend on the processing

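In the deposited log2 values 0 members passed the threshold in any comparison, because that scale compresses fold changes; by the adjusted p alone 4 members passed in KO1 (CDH1, CDH3, CDH11, CTNND1), 4 in KO2, where CDH1 was lost, and 4 with TGF-β, where CDH3 was gained and CDH11 lost, as against 4, 5 and 4 on the count scale. CDH2 was gained in WT_eGFP against WT, CDH16 in rescue against KO, CDH11 in KO1 against KO2, CDH6 in Rescue1 against Rescue2, and CDH6 and CDH11 in the libraries labelled KO2_Rescue against KO2. With TGF-β, 1 member was called with a pseudocount of 5 or without a filter, and 0 with only the compared groups in the fit, where KO1 against KO2 also had 0. A pseudocount of 5 or equal library totals gave 2 in the libraries labelled KO2_Rescue against KO2, a pseudocount of 0.5 or equal totals gave 1 (CDH3) in SOX2 against WT_eGFP, and rescue against KO1 alone gave 1. A filter on a mean of 50 removed CDH1. With no filter, CDH1 in KO2 had an adjusted p of 0.053 and was not called. Leaving out 1 library gave 1 to 2 called members with TGF-β, 2 to 4 in KO1, 2 to 3 in KO2, 0 to 1 in KO1 against KO2, 1 to 3 in rescue against WT_eGFP and 1 to 2 in WT_eGFP against WT, where the other 7 comparisons kept their counts. Equal totals moved the median of all genes by −0.39 in KO1, −0.21 in KO2, −0.20 with TGF-β, −0.18 in KO1 against KO2 and 0.37 in rescue against KO. Under it CTNNB1 in KO1 was −0.23, opposite in sign, CDH6 in KO1 (−1.22) and CTNND1 in rescue (1.05) were called, and the other causes of lost or gained calls were not tested. Of 412 log2 changes of members under other settings, 370 kept their direction and side of the threshold, 31 lost a call, 10 gained one and 1 reversed; of 216 with 1 library left out the numbers were 188, 23, 3 and 2, the last being CDH6 in KO1 (0.05) and in KO2 (−0.36). Leaving out the other WT library instead gave CDH6 calls of −1.68 in KO1 and 1.38 in KO2. Per kb of the longest transcript, WT levels were 710 for CTNNB1 and 1269 for CTNND1.

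Replicate numbers are shared between groups in the labels. The differences between duplicates, over genes with a mean of at least 50, had correlations between −0.14 and 0.10 over 55 pairs of groups. They held no strong shift shared by number. Whether same-numbered libraries shared a culture, preparation or run cannot be read from this. With the replicate number as a block, 1116 genes were called with TGF-β against 1143 without it, and 3643 against 3653 in KO1; the members called were 2 and 4, as without the block. Low counts limit CDH1 and CDH11, whose folds rest on values taken as 1 read in KO2 and in WT. Of 41 called changes of listed genes with TGF-β, in KO1, in KO2 or in rescue against KO, 19 lost the call without at least 1 of the libraries compared, among them 5 of the 6 with TGF-β, and 0 changed sign.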
